A study of Mus musculus with 9 samples.

Results

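RNA-binding proteins that set exon choice in striated muscle, given by the genes Rbm20, Rbm24, Rbm38, Mbnl1, Mbnl2, Celf1, Celf2, Rbfox1, Rbfox2 and Ptbp1, were compared between mouse quadriceps and heart. Members were found by gene symbol in the deposited table that sets sham quadriceps beside sham heart, which lists 24537 gene names, and all 10 were present, with 40 transcripts in all. Every one of the 40 passed the count filter. The series held 3 libraries each of sham heart, sham quadriceps and TAC quadriceps. The mice were wild-type C57Bl/6JCrl males by the study's methods, operated at 8 to 10 weeks of age and sampled 12 weeks after surgery. Transverse aortic constriction (TAC) narrows the aortic arch and loads the left ventricle, and sham animals, from which both tissues compared here came, had the operation without the constriction. The deposited table of TAC against sham quadriceps covers 587 genes, of which 0 are members, so the effect of TAC on these regulators was not analysed here.

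Alternative splicing joins different exons of a primary transcript, and muscle uses it heavily to build tissue-specific forms of titin, troponin T, calcium channels and membrane scaffolds. RBFOX, MBNL and CELF proteins bind short sequence elements in introns and exons and favour inclusion or skipping of the neighbouring exon, often according to the side on which they bind. RBM20 represses titin exons in heart and is known from familial dilated cardiomyopathy, MBNL proteins are sequestered by expanded repeats in myotonic dystrophy, CELF proteins oppose MBNL at many exons, and PTBP1 represses muscle and neuronal exons in cells that are neither.

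The 6 sham libraries held between 23383452 and 38382751 counts, summed over transcripts. The tissue labels were checked against marker lists, and all 10 cardiomyocyte markers were lower and all 10 skeletal fiber markers higher in quadriceps (edgeR's quasi-likelihood test, adjusted p under 0.05). Summed endothelial markers were at 566 to 612 CPM (a count divided by the TMM-scaled library size, in units of 1e6 counts) in heart and 170 to 198 CPM in quadriceps, and 8 of 8 were lower in quadriceps. Of the macrophage markers 5 of 7 were lower, and of the fibroblast markers 3 of 6, whereas 4 of 4 adipocyte and 3 of 3 satellite cell markers were higher. Summed adipocyte markers were uneven between the quadriceps libraries, at 100, 41.8 and 12.0 CPM. In bulk tissue, fewer cells of a type and less RNA per cell cannot be told apart. The scaling moved every fold change, as the median log2 fold change of all tested transcripts was -0.056 when scaled by TMM, -0.034 by the size factors of DESeq2 and -0.80 by library totals alone.

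Of the 10 genes, 6 were higher in quadriceps, 3 were lower and Rbm38 passed in neither direction, each judged by its most counted transcript (quasi-likelihood F test of edgeR, p-values adjusted by Benjamini-Hochberg across 24280 transcripts). Over the most counted transcripts of all 14906 genes tested, 32.1% were higher and 33.9% lower. The median log2 fold change of the 10 was 0.34, against -0.053 for the most counted transcript of all genes. With library totals 2 members were higher and 7 lower, where 13.6% of all genes were higher and 62.0% lower. At the level of transcripts, 39 of 40 passed in either direction, where 66.6% of all tested transcripts did. Of these, 26 were higher, against 32.2% of all, and 13 were lower, against 34.4%. Transcripts of 1 gene share most of their reads and are not independent of each other. A log2 fold change over 2 was reached by 6 transcripts, 4 of Mbnl1 and 2 of Rbfox1, where 7.00% of all transcripts passed, and none was under -2, where 8.64% did. With library totals 9 of the 40 were higher and 21 lower, against 13.3% and 62.6% of all transcripts, and 2 were over 2 and 2 under -2, against 4.68% and 17.2%. The CPM of the tissues did not overlap for 9 of the 10 genes, a pattern seen in 71.7% of all genes. With 3 libraries against 3, an exact two-sided permutation test of a single gene cannot go below 0.1, which was its value for these 9 genes, and was 0.5 for Rbm38.

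**Figure D1:**
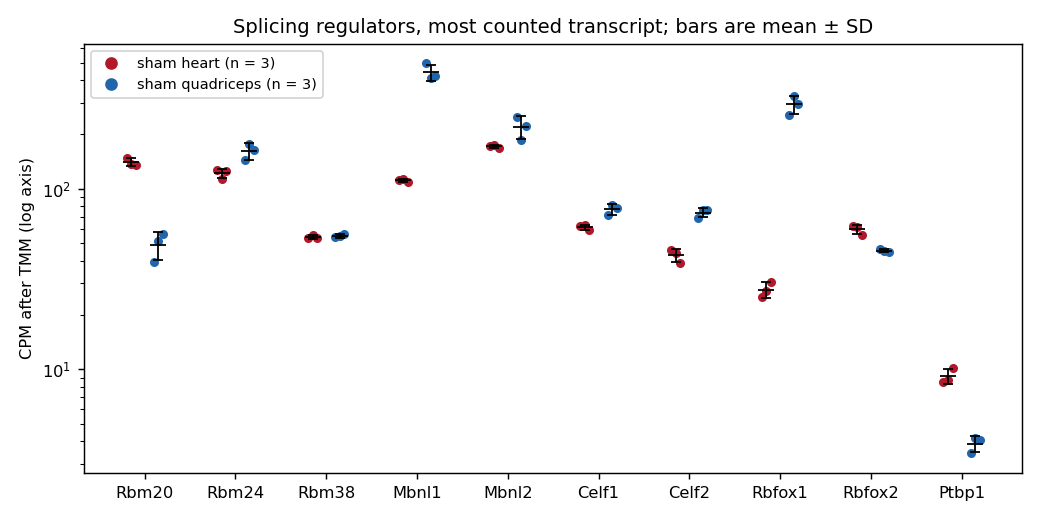
CPM after TMM scaling (log axis) of the most counted transcript of each of the 10 genes, with a point for each library (red, sham heart; blue, sham quadriceps) and black bars for the mean and SD (n = 3). Rbfox1 and Mbnl1 sit far higher in quadriceps, Rbm20 and Ptbp1 lower, and Rbm38 overlaps; with library totals in place of TMM, Rbm24, Mbnl2, Celf1 and Rbm38 lie lower in quadriceps.

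Rbfox1 showed the largest difference. It encodes an RNA-binding protein that recognises the element UGCAUG and acts in muscle, heart and brain, and it lies at chr16:5885355-7411526 (GRCm38, plus strand), a gene body with many alternative first exons. Its most counted transcript, NM_183188, was counted 1199, 1365 and 1315 times in heart and 6988, 7822 and 5231 times in quadriceps. Scaled, this was 25.2, 27.1 and 30.6 CPM in heart against 257, 327 and 296 CPM in quadriceps, with a wide gap between the tissues. The log2 fold change was 3.41 ± 0.14 (SE, n = 3 per tissue; edgeR, adjusted p = 4.95e-08), a 10.6-fold higher level in quadriceps. It remained at 2.65 with library totals. The GENCODE transcript paired with NM_183188 opens with an exon at chr16:7069846-7070085, and RefSeq (GRCm38.p6) places a gene start just before it. The 250 bases before that start are shown since they precede the 5′ end of the most counted transcript of this gene. They run from chr16:7069585-7069834 on the plus strand, and capitals mark matches to the E-box CANNTG, the element bound by myogenic helix-loop-helix factors.
Rbfox1 upstream of the start: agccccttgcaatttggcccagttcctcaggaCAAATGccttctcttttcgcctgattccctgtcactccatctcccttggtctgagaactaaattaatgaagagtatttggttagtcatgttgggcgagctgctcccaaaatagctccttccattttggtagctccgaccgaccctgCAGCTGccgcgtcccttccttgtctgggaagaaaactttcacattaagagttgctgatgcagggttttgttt
The window held 2 E-boxes, beginning 218 and 72 bases before the start. An E-box match was present in 66.2% of 32851 RefSeq windows of the same length, so its presence is common.

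Rbfox2, the broadly expressed relative of Rbfox1, went the other way. It lies at chr15:77078990-77307004 (minus strand). Its transcript NM_001110829 had 62.0, 61.3 and 55.3 CPM in heart and 46.6, 45.4 and 44.4 CPM in quadriceps, without overlap. This gave a log2 fold change of -0.39 ± 0.09 (edgeR, adjusted p = 0.00497), or -1.14 with library totals. All 9 Rbfox2 transcripts were lower, between -0.39 and -0.32 on the log2 scale. The ratio of the 2 relatives within a library does not depend on scaling between libraries. By deposited RPKM, which divides counts by transcript length and library total, Rbfox1 stood at 0.653, 0.712 and 0.892 times Rbfox2 in heart and at 8.87, 11.6 and 10.7 times in quadriceps. Rbfox2 was thus the more abundant of the pair in every heart library and Rbfox1 in every quadriceps library, a 13.8-fold shift of the ratio (exact permutation p = 0.1, the smallest possible, and 0.1 after adjustment over 4 pairs of relatives).

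Mbnl1 had the second largest difference with TMM, while with library totals Rbm20 and Ptbp1 differed more. Muscleblind-like 1 promotes the adult splicing pattern in skeletal muscle and heart, and its gene lies at chr3:60472830-60629750 (plus strand). NM_020007 was counted 5294, 5714 and 4668 times in heart and 13444, 9845 and 7440 times in quadriceps, or 111, 114 and 109 CPM against 494, 412 and 420 CPM. Heart libraries were close together, and all 3 quadriceps libraries stood well above them. The log2 fold change was 1.99 ± 0.12 (edgeR, adjusted p = 5.45e-07), a 3.98-fold difference, and was 1.25 with library totals. The other 6 listed transcripts gave up to 2.10, so that the gene lies on the boundary of the log2 threshold of 2. The first exon of the GENCODE transcript paired with NM_020007 starts at 60501179, which is also a RefSeq start, and the 250 bases before it (chr3:60500929-60501178, plus strand) are given for comparison with Rbfox1. Capitals mark matches, read on either strand, to the GC box GGGCGG, the element bound by Sp1, 3 of which overlap each other in the row near the start.
Mbnl1 upstream of the start: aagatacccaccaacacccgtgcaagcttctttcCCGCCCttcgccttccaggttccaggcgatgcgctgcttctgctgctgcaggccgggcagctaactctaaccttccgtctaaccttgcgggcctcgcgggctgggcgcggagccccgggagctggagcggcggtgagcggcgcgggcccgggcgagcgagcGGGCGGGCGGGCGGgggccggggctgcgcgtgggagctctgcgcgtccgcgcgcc
This window held 4 GC boxes and no E-box, and 73.6% of its bases were G or C. A GC box was found in 32.7% of all windows. The Rbfox1 window above had no GC box and 48.4% G or C.

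Mbnl2, which overlaps with Mbnl1 in its targets, differed far less. It lies at chr14:120275669-120431697 (plus strand), with 1 gene annotated on the opposite strand. NM_207515 had 173, 175 and 167 CPM in heart and 250, 187 and 223 CPM in quadriceps. The log2 fold change was 0.36 ± 0.12 with TMM (edgeR, adjusted p = 0.0289) but -0.38 with library totals, so its direction depends on the scaling. Without heart library 1, 2 or 3 the adjusted p (edgeR) was 0.0877, 0.0765 and 0.0973, and 0.0627 with replicate number entered as a block. The ratio of Mbnl1 to Mbnl2 was 0.512, 0.515 and 0.517 by RPKM in heart and 1.57, 1.75 and 1.50 in quadriceps. Mbnl2 was the more abundant in heart and Mbnl1 in quadriceps, a 3.12-fold shift (exact permutation p = 0.1, adjusted 0.1).

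**Figure D2:**
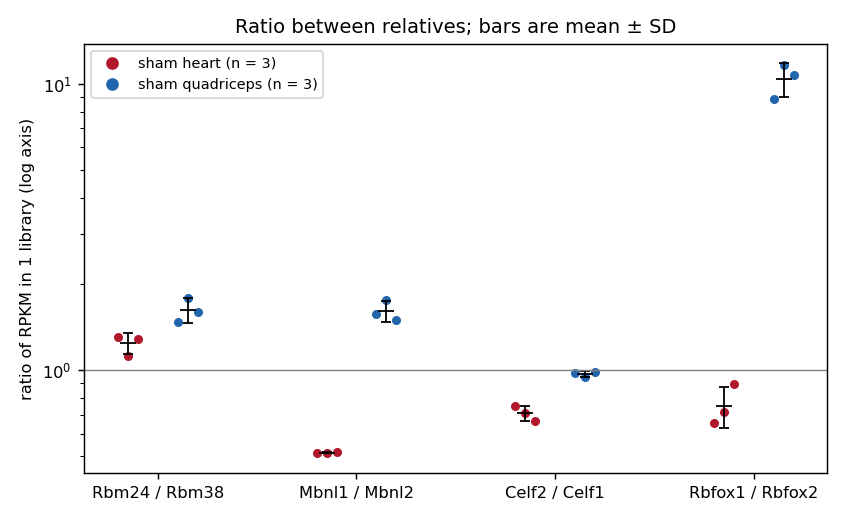
Ratio of RPKM between the most counted transcripts of 2 related genes within a library (log axis), with a point for each library (red, sham heart; blue, sham quadriceps), black bars for mean and SD (n = 3), and a grey line at a ratio of 1. The Rbfox1 to Rbfox2 and Mbnl1 to Mbnl2 ratios cross the line between the tissues, the Celf2 to Celf1 ratio rises towards it from 0.707 to 0.969, and the Rbm24 to Rbm38 ratio lies above it in both.

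Celf2 and Celf1 encode CUG-binding proteins that favour fetal splice forms and also bind GU-rich elements in mRNAs. Celf2 lies at chr2:6539694-7509563 (minus strand). Its transcript NM_001110229 had 45.9, 44.0 and 38.8 CPM in heart and 69.3, 76.1 and 76.1 CPM in quadriceps. The tissues did not overlap, with a log2 fold change of 0.78 ± 0.10 with TMM (edgeR, adjusted p = 0.000120), but with library totals the value was 0.03 (edgeR, adjusted p = 0.788) and the call was lost. Celf1, at chr2:90940382-91019497 (plus strand), had 61.9, 62.8 and 59.1 CPM in heart and 71.4, 81.3 and 78.0 CPM in quadriceps. Its log2 fold change was 0.33 ± 0.10 with TMM (edgeR, adjusted p = 0.0126) and -0.43 with library totals, the opposite direction. Without heart library 3 the adjusted p (edgeR) for Celf1 was 0.0597. Within libraries, Celf2 rose relative to Celf1 from 0.749, 0.707 and 0.664 in heart to 0.979, 0.944 and 0.985 in quadriceps by RPKM, without overlap and by 1.37-fold (exact permutation p = 0.1, adjusted 0.1). The level of this ratio depends on the transcript used. Celf1 was at 10.2 RPKM in heart and 7.59 in quadriceps by its most counted transcript, but at 15.2 and 11.1 by the shorter NM_017368.

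Rbm20 had the largest fall among the 10. It encodes the titin splicing repressor, is placed at chr19:53677306-53867080 (plus strand), and 2 genes overlap it on the opposite strand. The 1 listed transcript, NM_001170847, was counted 7059, 6881 and 5845 times in heart and 1068, 1231 and 992 times in quadriceps, or 148, 137 and 136 CPM against 39.3, 51.5 and 56.1 CPM. Every quadriceps library lay far below every heart library. The log2 fold change was -1.52 ± 0.14 (edgeR, adjusted p = 1.01e-05), 2.87-fold lower in quadriceps, and -2.28 with library totals. Quadriceps still carried Rbm20, at 5.70 ± 0.739 RPKM (SD, n = 3).

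Rbm24 and Rbm38 are closely related proteins that bind GU-rich elements and promote muscle exons, and Rbm24 is needed for sarcomere assembly in the heart. Rbm24 (chr13:46418434-46431095, plus strand) had 127, 113 and 125 CPM in heart and 144, 178 and 164 CPM in quadriceps. The log2 fold change was 0.41 ± 0.11 with TMM (edgeR, adjusted p = 0.00907) and -0.34 with library totals, so this direction too depends on the scaling, and without heart library 2 the adjusted p (edgeR) was 0.0529. Rbm38 (chr2:173020498-173034734, plus strand) had 53.1, 55.4 and 53.1 CPM in heart and 53.8, 54.5 and 56.5 CPM in quadriceps, overlapping ranges. Its log2 fold change was 0.03 ± 0.09 with TMM (edgeR, adjusted p = 0.794) and -0.72 with library totals, below zero by the latter's test (edgeR, adjusted p = 0.000131). The ratio of Rbm24 to Rbm38 was 1.31, 1.12 and 1.29 in heart and 1.47, 1.79 and 1.59 in quadriceps by RPKM, a 1.30-fold difference without overlap (exact permutation p = 0.1, adjusted 0.1).

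Ptbp1 was the least abundant of the 10 in both tissues. It lies at chr10:79854427-79864771 (plus strand), where 3 genes, Plppr3 among them, overlap it on the opposite strand. The strand setting of the authors' counting is not given in the sources used here, so reads of such partners cannot be told apart. NM_001077363 was counted 407, 438 and 437 times in heart and 93, 99 and 72 times in quadriceps, or 8.55, 8.71 and 10.2 CPM against 3.42, 4.14 and 4.07 CPM. The groups were well separated, with a log2 fold change of -1.24 ± 0.13 (edgeR, adjusted p = 3.08e-05), 2.37-fold lower in quadriceps, and of -2.0 with library totals. Ptbp1 is expressed in endothelial, immune and connective tissue cells. In quadriceps 8 of 8 endothelial, 5 of 7 macrophage and 3 of 6 fibroblast markers were lower. The 4 adipocyte and 3 satellite cell markers were higher. The part of these cells in the difference was not tested.

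**Figure D3:**
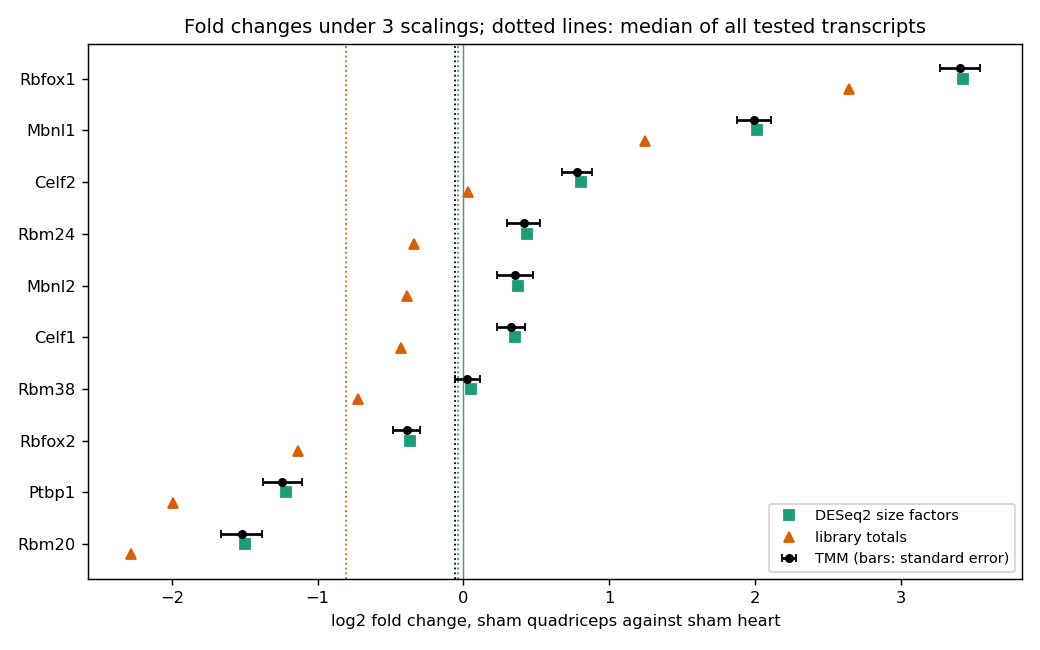
Log2 fold change of sham quadriceps against sham heart (x axis) for the most counted transcript of each gene, with TMM (black circles, bars are the standard error), DESeq2's size factors (green squares) and library totals (orange triangles), and dotted lines for the median of all tested transcripts with each. Rbfox1 and Mbnl1 stay above 0 and Rbm20, Ptbp1 and Rbfox2 below 0 with all 3 scalings, while Rbm24, Mbnl2, Celf1 and Rbm38 change sign with library totals.

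Compared per length, the order of the levels differed between the tissues. In heart Mbnl2 (49.7 ± 1.44 RPKM, SD, n = 3) and Rbm24 (49.0 ± 2.55) led with overlapping ranges, followed by Rbm38 at 39.5, Rbm20 at 27.7, Mbnl1 at 25.6, Rbfox2 at 11.8, Celf1 at 10.2, Rbfox1 at 8.82, Celf2 at 7.21 and Ptbp1 at 3.84 RPKM, each of these apart from the next. In quadriceps Mbnl1 (60.7 ± 10.7 RPKM) and Rbfox1 (55.3 ± 2.85) led with overlapping ranges. Rbm24 at 38.7 and Mbnl2 at 38.0 RPKM also overlapped, as did Rbm20 at 5.70 and Rbfox2 at 5.36. Between these pairs stood Rbm38 at 24.0, Celf1 at 7.59 and Celf2 at 7.36 RPKM, and Ptbp1 closed the order at 0.963. By the most counted transcript of each gene, Rbfox1 thus moved from the eighth place to the second, and Rbm20 from the fourth to the eighth. The order depends on the transcript and its length. By NM_021477, Rbfox1 had a mean of 6.56 RPKM in heart, under that of Celf2, with overlapping ranges (5.97 to 7.21 against 6.53 to 7.64). By NM_017368, Celf1 was at 15.2 RPKM in heart, above Rbfox2, and at 11.1 in quadriceps. RPKM is scaled by the library total, so these are orders within a tissue and the RPKM values of one gene are not compared across tissues here.

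**Figure D4:**
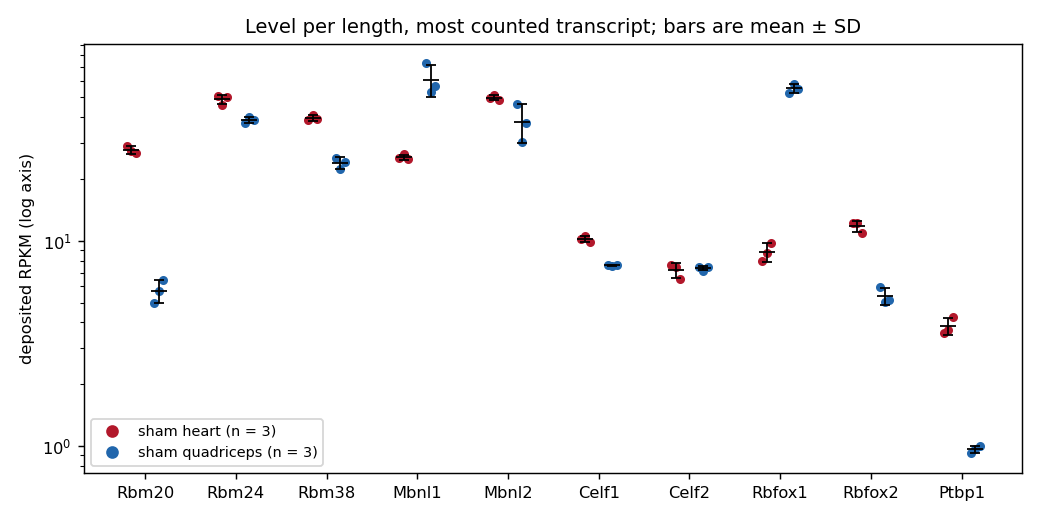
Deposited RPKM (log axis), a level per transcript length and library total, of the most counted transcript of each gene, with a point for each library (red, sham heart; blue, sham quadriceps) and black bars for mean and SD (n = 3). Mbnl2 and Rbm24 lead in heart at 49.7 and 49.0, Mbnl1 and Rbfox1 in quadriceps at 60.7 and 55.3, and Ptbp1 is last in both.

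The regulators are themselves alternatively spliced, and 7 of them had at least 2 listed transcripts. A test of unequal change between the transcripts of a gene (edgeR's diffSpliceDGE) called 0 of these 7, and also 0 at an unadjusted p under 0.05, where 1.80% and 5.35% of 4952 genes passed. Because most reads were counted on several transcripts of a gene, that test sees little of a difference in a short stretch. The net difference in counts between 2 transcripts of a gene, which leaves out the reads they share, was therefore taken as a percent of the more counted one. Between the most and the least counted transcript this percent did not overlap between the tissues for 5 of the 7, Mbnl1, Celf1, Celf2, Rbfox1 and Rbfox2, against 39.0% of 4561 genes. This measure and the transcript pairs below were chosen after the values were seen, and carry no test.

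In Celf2 the net difference was nearly confined to heart. NM_001110229 had 76, 95 and 47 more counts than NM_001110228 in heart, but 2, 0 and 1 more in quadriceps. These were 3.48, 4.29 and 2.82% of its counts in heart, against 0.106, 0 and 0.0742% in quadriceps, although the gene as a whole had more CPM there. A like excess over NM_001110228 was seen in heart for NM_001110230 (76, 92 and 47) and NM_001160292 (65, 83 and 44), with 2, 0 and 1 and then -5, -5 and -4 in quadriceps. The GENCODE transcripts paired with these 3 have their first exon within chr2:7081107-7081302, whereas that paired with NM_001110228 has its first exon at chr2:6884852-6884996, further downstream. NM_001110229 also exceeded NM_001110232, by 67, 89 and 46 counts in heart and by 2, 1 and 1 in quadriceps. The partner of NM_001110232 begins with an exon at chr2:7395858-7396000. It shares an exon at chr2:6962379-6962414 with the partners of those 3, so that exon does not separate them. The counts alone do not place the extra heart reads on an exon. The first exon of the 3 overlaps, on the opposite strand, the lincRNA Gm26565 (chr2:7077265-7081313, plus strand), which has 0 rows in the table, and without the strand setting reads of that gene cannot be told apart. The 250 bases before the RefSeq start of this exon (GRCm38.p6, chr2:7081303-7081552, minus strand) are shown, since they lie next to the exon shared by the 3 transcripts with extra heart counts, with an E-box match in capitals.
Celf2 upstream of the start: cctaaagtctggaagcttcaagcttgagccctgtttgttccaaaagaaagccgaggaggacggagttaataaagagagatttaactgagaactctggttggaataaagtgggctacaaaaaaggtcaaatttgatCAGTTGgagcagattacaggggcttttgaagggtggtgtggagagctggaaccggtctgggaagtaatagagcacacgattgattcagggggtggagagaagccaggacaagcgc
It held 1 E-box, 115 bases before the start, and no GC box. No match to the MEF2 element was found in the 14 windows of the 8 members listed in the RefSeq table, where 2.92% of all windows had one. Rbm20 and Rbfox2 were not among them.

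In Mbnl1, NM_020007 exceeded NM_001253709 by 593, 748 and 472 counts in the 3 hearts and by 813, 374 and 335 in the quadriceps. As a share of its counts this was 11.2, 13.1 and 10.1% in heart and 6.05, 3.80 and 4.50% in quadriceps, without overlap. The table gives NM_020007 1153 more bases, and its GENCODE partner holds an exon of 1049 bases at chr3:60528756-60529804 that the partner of NM_001253709 lacks. The gain of Mbnl1 in quadriceps was thus smaller in the net counts separating these transcripts than in NM_020007 as a whole. NM_020007 exceeded NM_001253711, shorter by 1124 bases, by 11.3, 13.7 and 10.3% in heart and 6.71, 4.35 and 5.08% in quadriceps. The partner of NM_001253711 holds that exon, but it is also paired with NM_001310514, shorter by only 76 bases. It therefore cannot tell whether NM_001253711 has the exon. NM_001253713 and NM_001253710, shorter by 1119 and 1142 bases, also gave higher percents in heart, without overlap. The difference thus went with the transcripts shorter by 1119 to 1153 bases. Which of these bases carry it was not tested. Against NM_001253708, shorter by 94 bases, the difference was 1.32, 1.73 and 1.14% in heart. It was 1.44, 1.17 and 1.09% in quadriceps, and the tissues overlapped. The tissues overlapped against NM_001310514 too.

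Rbfox1 NM_183188 exceeded NM_021477 by 4.59, 5.57 and 6.24% of its counts in heart and by 4.14, 3.29 and 3.71% in quadriceps. Their GENCODE partners differ in the 5′ exons, in the last exon (chr16:7409691-7409813 with NM_183188 and chr16:7409691-7411526 with NM_021477) and in a pair of internal exons, one of 43 bases at chr16:7369801-7369843 with NM_183188 and one of 40 bases at chr16:7363865-7363904 with NM_021477, and the counts do not separate these stretches. Rbfox2 NM_001110829 exceeded NM_001286417, which is 1977 bases shorter and whose partner has its last exon at chr15:77080479-77082271, by 27.9, 28.5 and 27.8% in heart and by 24.0, 24.4 and 25.6% in quadriceps. Celf1 NM_001244891 exceeded NM_017368, which is 2976 bases shorter, by 7.70, 8.68 and 7.45% in heart and by 10.7, 9.20 and 9.85% in quadriceps. The partners of these Celf1 transcripts share their last exon's end at 91019490, but it begins at 91013491 in the longer and at 91016566 in the shorter. Rbfox1 and Rbfox2 were higher in heart by this measure and Celf1 in quadriceps, each by a small margin. For Mbnl2, NM_207515 and NM_175341 differed by 5 to 9 counts in every library.

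**Figure D5:**
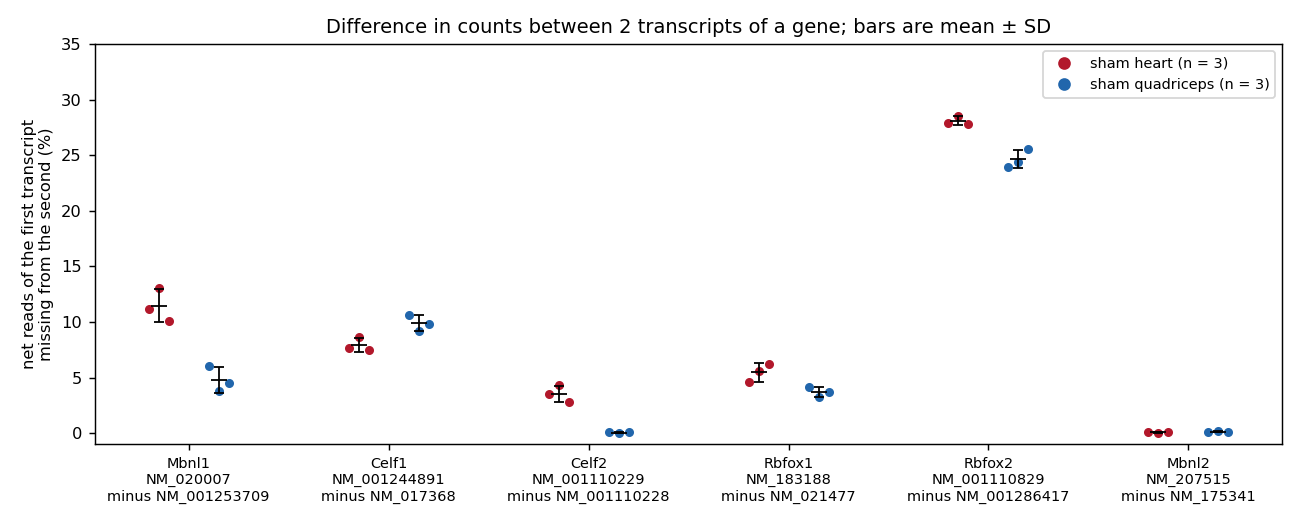
Net difference in counts between 2 transcripts of a gene as a percent of the first one's counts (y axis), with a point for each library (red, sham heart; blue, sham quadriceps) and black bars for mean and SD (n = 3). Celf2 lies at 2.82 to 4.29% in heart and near 0 in quadriceps, Mbnl1 at 10.1 to 13.1% against 3.80 to 6.05%, and Mbnl2 overlaps near 0.

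Of 8 listed paralogs 6 could be tested, 2 were higher, 1 was lower and 3 did not pass. Ptbp2, the relative that takes the place of Ptbp1 in neurons, had 14.3, 14.1 and 14.0 CPM in heart and 29.3, 26.1 and 26.4 CPM in quadriceps, a log2 fold change of 0.95 ± 0.10 (edgeR, adjusted p = 2.04e-05) that was 0.21 with library totals (edgeR, adjusted p = 0.128). Ptbp3 had 19.3, 19.0 and 20.7 CPM in heart and 17.4, 7.36 and 11.4 CPM in quadriceps, with a log2 fold change of -0.70 ± 0.25 (edgeR, adjusted p = 0.0303). Celf3 passed with only 3, 1 and 1 reads counted in heart against 8, 7 and 2 in quadriceps, too few to read a size from. Mbnl3, Celf4 and Celf5, at 2 to 21 counts a library, did not pass, with log2 fold changes of -0.24, -0.21 and -0.24, and Rbfox3 and Celf6 were under the filter.

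A list of 54 other tested splicing regulators had a median log2 fold change of 0.04, with 19 higher, 9 lower and 26 not passing. With library totals these counts were 1 and 40, so the split of this list rests on the scaling. The largest rises among those with enough counts were Rbm10 (1.80), the kinase gene Clk3 (1.0) and Tardbp (0.89), and the largest falls Nova2 (-1.40), Khdrbs3 (-1.35) and Raver2 (-1.34). Of 25 genes of the core spliceosome 7 were higher and 6 lower, with a median of -0.08, or 2 and 15 with library totals. Snrpf (2.23), Snrpb2 (1.48) and Snrpc (0.96) led the rises, and Sf3a1 (-1.77), Sf3b3 (-1.12) and Sf3a2 (-1.06) the falls. By root mean square difference of centred log2 CPM over the 6 libraries, the genes among 85 candidates most like Rbfox1 were Rbm10 (0.825), Snrpf (0.844) and Snrpb2 (0.984). Each of the 3 had a smaller log2 fold change than Rbfox1. Those most like Rbm20 were Khdrbs3 (0.179), Sf3b3 (0.225) and Sf3a1 (0.226). The likeness describes 2 groups of 3 libraries and follows mainly the difference between the tissues.

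The genes whose exons these proteins are known to control were measured by their overall level, not by exon. Of 18 RBM20 targets 9 were higher and 7 lower in quadriceps, the median log2 fold change being 0.50, or 7 and 9 with a median of -0.26 with library totals. The giant sarcomere gene Ttn was higher by 1.56 ± 0.21 (edgeR, adjusted p = 0.000140), and 0.81 with library totals, and the Z-disc gene Ldb3 by 1.29 ± 0.16 (edgeR, adjusted p = 8.87e-05). Pdlim3 (5.74), Rtn4 (4.58) and Camk2g (2.14) had the largest rises. Camk2d, a calcium-dependent kinase of heart muscle, fell by 1.14 on the log2 scale (edgeR, adjusted p = 2.84e-05), with Lmo7 at -1.89 and Cacna1c at -6.31. The cardiac calcium release channel gene Ryr2 was counted 54458, 53823 and 41636 times in heart and 4, 0 and 2 times in quadriceps. Of 17 MBNL and CELF targets 11 were higher and 4 lower, with a median of 1.06, or 8 and 8 with a median of 0.34 with library totals. The fast skeletal troponin Tnnt3 and the fast calcium pump Atp2a1 each had at most 28 counts in any heart library, against at least 135618 in each quadriceps library, and the membrane tubule gene Bin1 was higher by 6.62. The cardiac troponin Tnnt2 had at least 283994 counts in each heart library and at most 153 in quadriceps, and Ank2 (-0.86) and Dmpk (-0.63) were also lower.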

How the data were processed

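RNA was sequenced from 3 sham heart, 3 sham quadriceps and 3 TAC quadriceps samples, and the libraries of sham tissue were used. The authors purified mRNA, made ScriptSeq v2 libraries, sequenced single-end reads, trimmed them with Trim Galore, aligned them to mm10 with STAR and counted them per RefSeq transcript with Rsubread. The authors deposited raw counts and RPKM values. RPKM were used for levels between genes and within-library ratios. Columns of the authors' own edgeR results (fold changes, p-values) were not used.

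A transcript entered the test if 2 or more libraries held over 5 counts of it. Tests ran in edgeR 4.0.16 under R 4.3.3 (TMM, quasi-likelihood, Benjamini-Hochberg over 24280 transcripts, adjusted p under 0.05), quadriceps against heart, with no covariate. CPM are TMM-scaled. The alternatives were DESeq2 1.42.0, its size factors, library totals, other filters, 1 transcript per gene, a replicate block and leaving out each library. Exact permutation tests used scipy 1.17.1. On data simulated for sham quadriceps against sham heart, with 200 of the transcripts changed by a log2 fold change of 2, the test recovered 94.5% among 23860 transcripts and 3.57% of the calls were false. All other simulated transcripts had equal levels in both groups, with a fixed dispersion, whereas 66.6% of the real transcripts passed. The simulation therefore does not give the false share of the real calls or the effect of scaling on them. The test of unequal change recovered 95.5% of 200 genes among 4882, on transcripts drawn independently of each other, unlike the real ones. Replicate libraries differed by more than sampling noise. The study calls its RNA-seq samples biological replicates. Whether heart and quadriceps of the same number came from one mouse is not given in the sources used here.

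The members and gene lists were chosen with earlier results of these data known. Named were all 10 members, each by its most counted transcript, the paralogs, and of the other lists the 3 largest rises and falls with a mean of at least 50 counts. Of the targets, Ttn, Ldb3 and Camk2d were added after their values were seen. Of the marker lists, smooth muscle and pericyte (1 of 6 higher, 2 lower) and Schwann cell and neuron (2 of 4 higher, 0 lower) were also checked. Positions and exons are from GENCODE vM21, paired with RefSeq by GENCODE's own table, and paired lengths often differ. Upstream sequences are RefSeq's (GRCm38.p6), and motifs were the E-box CANNTG, the GC box GGGCGG and the MEF2 element, on both strands.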

Additional observations from a re-analysis of the deposited data

How the results depend on the processing

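Rbfox1, Mbnl1, Rbm20, Rbfox2 and Ptbp1 kept their direction and their call in each of the 13 alternatives run, with log2 fold changes of 2.65 to 3.52, 1.25 to 2.05, -2.28 to -1.36, -1.14 to -0.35 and -2.0 to -1.12. With library totals 9 member transcripts were higher and 21 lower, 2 were over a log2 fold change of 2 and 2 under -2, and 2 genes were higher and 7 lower. There Rbm24 (-0.34), Rbm38 (-0.72), Mbnl2 (-0.38) and Celf1 (-0.43) turned direction and Celf2 (0.03) lost its call, all of them being moved down with the median of all transcripts. Rbm38 was at -0.0088 without a filter and -0.039 with at least 10 counts in every library, and Mbnl2 lost its call with the latter (0.29). With 1 transcript per gene 6 were higher, 3 lower and 1 over 2, since fewer transcripts were then tested. Leaving out each library gave 20 to 26 transcripts higher and 12 to 13 lower, 6 to 9 over 2 and 0 under -2, 4 to 6 genes higher and 3 lower, and 0 members with unequal change. Among the 10 genes, judged by their most counted transcript, the calls lost were those of Mbnl2, Rbm24 and Celf1 given above. With the replicate number as a block, 22 transcripts were higher, 13 lower and 5 genes higher, and Mbnl2 alone of the 10 genes lost its call. Deviations from the tissue mean correlated with r of 0.0234, -0.0969 and -0.0093 between libraries of the same number. Only heart 1 correlated best with its own number. Correlations this weak between different tissues cannot decide whether the samples were paired. The cause of these changes was not tested beyond what each alternative changes. Depth limits Celf3 and the other low paralogs. The net difference of Celf2 transcripts in quadriceps was a few counts, beside 1884, 1820 and 1347 counts of NM_001110229 there.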
